A study of Mus musculus with 6 samples.

Results

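The RNA levels of 10 genes that mark and regulate the covering and vessel-supporting cells of the brain were followed in cortical cells of mouse embryos exposed to phenobarbital. The meningeal genes were Foxc1, Foxc2, Foxd1, Zic1, Tbx18 and Aldh1a2, and the pericyte genes were Pdgfrb, Rgs5, Cspg4 and Anpep. They were chosen by name, as every array probe whose RefSeq accession belongs to one of these symbols. All 10 were on the array, among 20145 gene symbols, with 2 probes for Zic1 and 1 for each other gene, 11 in all. Both groups were embryos of C57BL/6N dams. The control dams received saline, and the phenobarbital dams 80 mg/kg of phenobarbital, a barbiturate antiepileptic drug that acts on GABA-A receptors, from an 8 mg/mL solution, injected 6 h apart from embryonic day 10 to 11. Embryonic cortex was collected on day 12 of gestation by the protocol and at E12.5 by the sample labels, dissociated and plated, and RNA was isolated 4 h after plating. Each group had 3 single-colour Agilent arrays. The labels call the cells neural progenitor cells of the cerebral neocortex and describe no sort or removal of other cell types, and they leave unstated whether litters or cultures differed between replicates. The p-values therefore measure only the spread among these 6 samples, and that spread may be technical.

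The meninges are the connective sheath around the brain, formed over the forebrain largely by neural crest cells. Foxc1 is a forkhead transcription factor needed for their formation, and Foxc2 is its closest relative. Foxd1, Tbx18 and Zic1 are further transcription factors of this mesenchyme, of which Tbx18 is also used as a marker of pericytes and Zic1 is also made by neural cells near the dorsal midline. Aldh1a2 makes retinoic acid, a signal from the meninges to the cortex beneath. Pericytes wrap the smallest vessels. Their receptor Pdgfrb binds the growth factor Pdgfb released by endothelial cells, Rgs5 is a regulator of G-protein signalling, Cspg4 is the NG2 proteoglycan, which oligodendrocyte precursors make as well, and Anpep is the surface aminopeptidase CD13.

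The stretches of DNA just upstream of Foxc1 and Tbx18, the meningeal genes that fell, and of Zic1, the gene that rose, are shown because these genes share a cell type by name and moved in different directions. Each is the 250 bases before the RefSeq start, 5′ to 3′ on the gene's strand, from the table of build GRCm38.p6. They lie at chr13:31806396-31806645 on the plus strand for Foxc1, and on the minus strand at chr9:87731261-87731510 for Tbx18 and chr9:91365769-91366018 for Zic1. Capitals mark matches to any of the motifs searched on both strands.
Foxc1: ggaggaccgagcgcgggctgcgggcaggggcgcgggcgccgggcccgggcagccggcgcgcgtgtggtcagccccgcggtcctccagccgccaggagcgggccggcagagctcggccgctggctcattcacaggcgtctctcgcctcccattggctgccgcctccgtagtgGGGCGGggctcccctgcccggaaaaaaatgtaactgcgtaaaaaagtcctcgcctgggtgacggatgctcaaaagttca
Tbx18: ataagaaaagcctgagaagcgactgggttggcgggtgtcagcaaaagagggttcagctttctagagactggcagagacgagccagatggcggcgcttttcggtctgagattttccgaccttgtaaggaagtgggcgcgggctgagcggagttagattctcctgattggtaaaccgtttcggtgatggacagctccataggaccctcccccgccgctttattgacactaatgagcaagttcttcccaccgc
Zic1: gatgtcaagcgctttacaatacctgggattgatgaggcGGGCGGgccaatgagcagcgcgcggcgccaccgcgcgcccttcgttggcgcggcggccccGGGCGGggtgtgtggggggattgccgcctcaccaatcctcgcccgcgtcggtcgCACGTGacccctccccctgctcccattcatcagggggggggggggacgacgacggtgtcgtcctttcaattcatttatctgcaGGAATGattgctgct
The motifs were the forkhead core TGTTTAC, the GC box GGGCGG, the TATA box TATAAA, the E box CACGTG and the TEAD motif CATTCC. The capitals in Foxc1 are 1 GC box, those in Zic1 are 2 GC boxes, 1 E box and 1 TEAD motif, and Tbx18 held none of the motifs. The table held promoters for 8 of the 10 genes, without Foxc2 and Pdgfrb. The GC box was found in 5 of these 8 (Anpep, Cspg4, Foxc1, Foxd1 and Zic1), and in 32.7% of all 32851 promoters. None of the 8 held the forkhead or TATA motif, which 3.17% and 12.4% of all promoters held, and only Zic1 held the E box (6.02% of all) or the TEAD motif (12.6%). The stretch was 70.8% G and C for Foxc1, 54.0% for Tbx18 and 66.0% for Zic1, where the median over all promoters was 52.4%. These matches are a description of letters and were not set against the arrays.

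The signal of each probe is given as a percentage of its array's 75th percentile over spots other than controls, and differences are on the log2 scale of that ratio, phenobarbital minus control. The 75th percentile itself lay between 1116 and 1286 for control and between 1802 and 1853 for phenobarbital (two-sided exact permutation p = 0.1, which is the smallest possible with 3 arrays a group). Before this scaling, the median log2 difference of all names was 0.45, and after it -0.16. Control replicate 1 shared slide 1 with all 3 phenobarbital arrays, and control replicates 2 and 3 were on slides 2 and 3. Among the controls, replicate 2 stood apart, with a Pearson's r across tested names, which are not independent, of 0.988 and 0.983 to the other controls, against 0.996 between those. The phenobarbital arrays were about as far from these, with 0.985 to 0.988 to control replicate 1 and 0.982 to 0.988 to control replicate 3. To control replicate 2 the phenobarbital arrays had 0.976 to 0.977. The labelled cell type was present: all 10 genes of a list of cortical progenitors, among them Pax6, Sox2 and Nes, were above background on every array. So were all 11 probes of the 10 genes, which means that each passed the filter on dim probes in both groups.

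Of the 10 genes, 3 fell with phenobarbital (Foxc1, Tbx18 and Pdgfrb), 1 rose (Zic1) and 6 did not pass the test (limma, adjusted p below 0.05 over 25304 names). Over all names 10.5% fell and 6.24% rose. The log2 difference was negative for 9 of the 10 genes and for 68.0% of all names, and for 9 of the 11 probes against 65.4% of all probes, and the median was -0.51 for the 10 genes and -0.16 for all names. The arrays of both groups did not overlap for 7 genes, with phenobarbital lower for 6 of them, which was so for 32.4% of all names, and higher for Zic1, which was so for 11.7%. In bulk RNA, fewer cells of a type and less RNA per cell cannot be told apart.

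**Figure D1:**
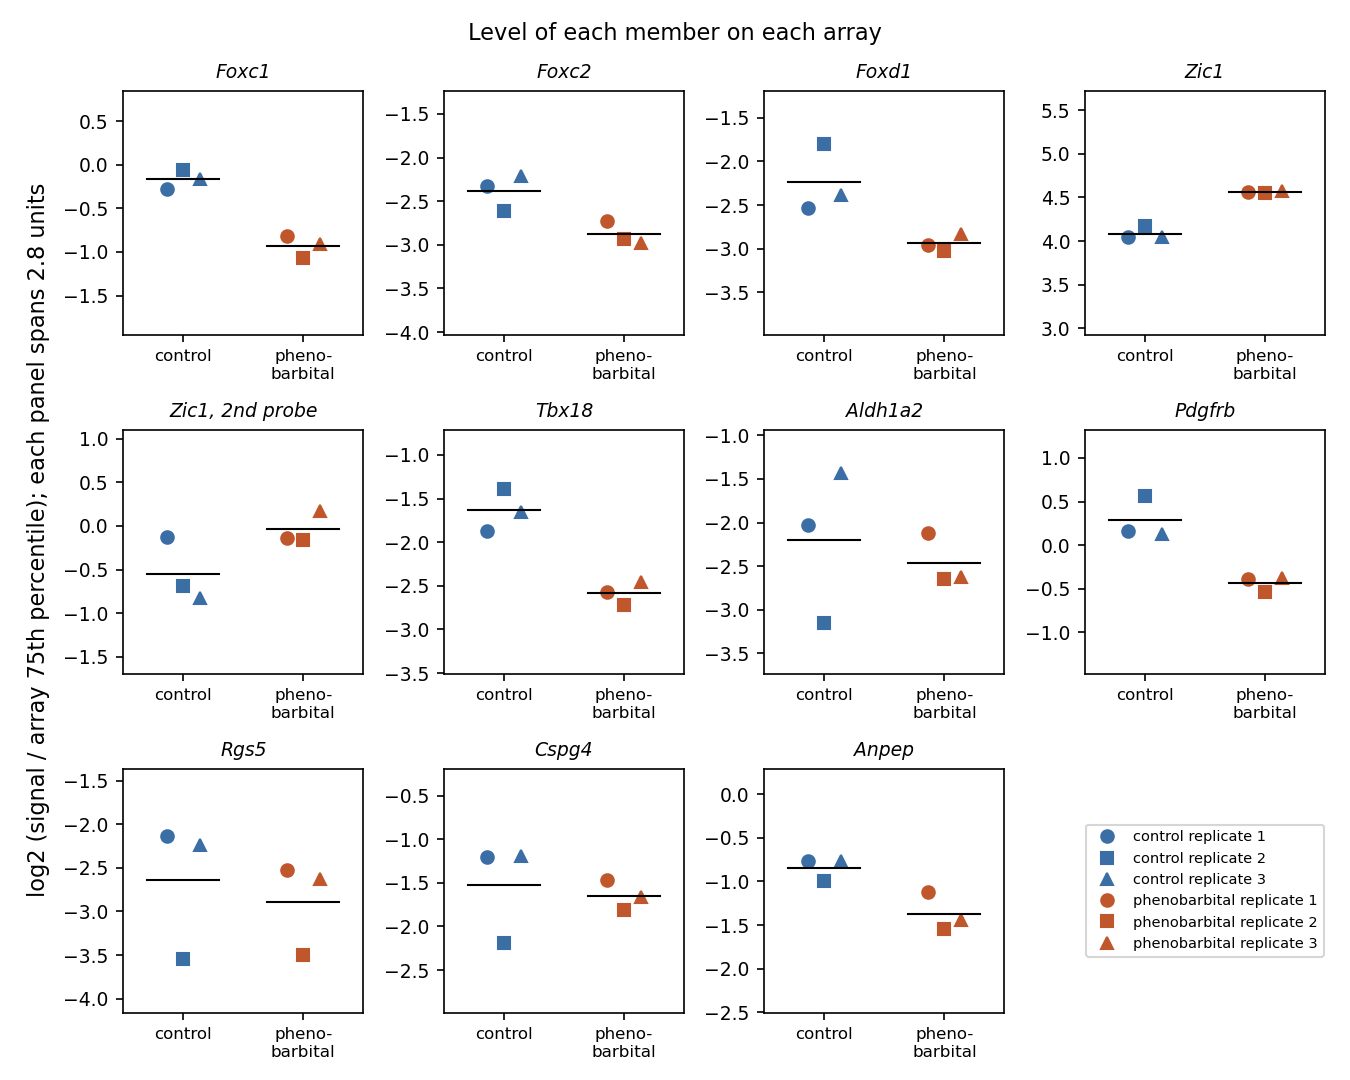
Level of each of the 11 probes on each array, as log2 of the signal over the array's 75th percentile. Points are arrays, lines are group means, and every panel spans the same range of log2 units. The phenobarbital arrays lay below every control array for Foxc1, Foxc2, Foxd1, Tbx18, Pdgfrb and Anpep, and above for the brighter Zic1 probe.

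Tbx18, a T-box factor of meningeal mesenchyme and pericytes, had the lowest log2 difference of the 10 genes. Its signal was 27.3%, 38.2% and 31.8% of the 75th percentile in the controls, in the order of replicates 1 to 3 as throughout, and 16.8%, 15.2% and 18.2% with phenobarbital. Every phenobarbital array was thus below every control array, and the phenobarbital arrays lay closer together than the controls. Tbx18 fell by 0.94 ± 0.15 on the log2 scale (SE, n = 3 per group), a 1.92-fold difference whose 95% interval ran from 1.49 to 2.48 (limma, adjusted p = 0.0158). Only 2.78% of all names had a log2 difference as low or lower.

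Foxc1, the factor needed to form the meninges, was 82.6%, 95.7% and 89.4% of the 75th percentile in the controls and 56.9%, 47.5% and 53.4% with phenobarbital. Its groups were well apart, with a gap of 0.54 between the nearest arrays on the log2 scale, where the SD was 0.11 among controls and 0.13 among phenobarbital arrays. Foxc1 fell by 0.76 ± 0.12, or 1.70-fold with an interval of 1.396 to 2.07 (limma, adjusted p = 0.0134). Without phenobarbital replicate 2 neither fall passed (adjusted p = 0.0571 for Foxc1 and 0.0666 for Tbx18), and without phenobarbital replicate 1 Tbx18 did not pass (0.0572). With slide as a block, where only slide 1 with its 1 control array informs the comparison, their differences were -0.66 and -0.71 and did not pass (adjusted p = 0.132 and 0.113).

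Foxc2 and Foxd1, the other forkhead genes, were lower on every phenobarbital array than on any control array but did not pass. Foxc2 was 19.9%, 16.4% and 21.6% in the controls and 15.1%, 13.1% and 12.7% with phenobarbital. The nearest arrays of its groups, control replicate 2 and phenobarbital replicate 1, were only 0.12 apart on the log2 scale, and the difference was -0.50 ± 0.14 (adjusted p = 0.0594). Foxd1 was 17.3%, 28.8% and 19.2% in the controls and 12.9%, 12.3% and 14.04% with phenobarbital. Here control replicate 2 was the high array, the phenobarbital arrays were close together, and the difference was -0.70 ± 0.20 (adjusted p = 0.0603). Without control replicate 2 both passed, Foxc2 with -0.61 (adjusted p = 0.0294) and Foxd1 with -0.48 (0.0427), so that the removal of the same array made one difference larger and the other smaller.

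Zic1, a zinc finger factor, moved the other way. Its brighter probe read 1654%, 1797% and 1651% of the 75th percentile in the controls and 2372%, 2346% and 2384% with phenobarbital. All 3 phenobarbital arrays were higher than all controls, and they differed among themselves by an SD of only 0.01 on the log2 scale. This probe rose by 0.48 ± 0.09, or 1.39-fold with an interval of 1.19 to 1.63 (limma, adjusted p = 0.0257). The dimmer probe read 91.3%, 61.9% and 56.5% in the controls and 91.2%, 89.5% and 113% with phenobarbital. Control replicate 1 lay among the phenobarbital arrays, so the groups overlapped, and the difference of 0.51 ± 0.21 did not pass over all 34673 probes (adjusted p = 0.139). Over all probes 6.97% rose and 8.74% fell, and the counts of probes that passed here were the same 3 falls and 1 rise. The call for the brighter probe ended without any 1 of control replicates 1 and 3 and the 3 phenobarbital replicates (differences of 0.46 to 0.49, limma, adjusted p = 0.0616 to 0.0978), and it held without control replicate 2.

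Other genes of the Zic family were set beside Zic1. Zic4, which is the next protein-coding gene to Zic1 in the RefSeq table, rose by 1.54 ± 0.21 (limma, adjusted p = 0.0102), and its other probe rose by 1.73. Zic5 had a difference of 0.94 ± 0.26 (adjusted p = 0.0527) with groups that did not overlap, and Zic2 of 0.03 ± 0.18. Zic1, Zic2, Zic4 and Zic5 thus each had a positive difference, and of these Zic1 and Zic4 passed. In the list of relatives of the Zic, Fox and Tbx members, 9 of 11 were tested. Of these, 3 fell, 1 rose and 5 did not pass, where 10.5% of all names fell and 6.24% rose. The falls were the T-box genes Tbx22 and Tbx15, by 1.69 ± 0.27 and 0.97 ± 0.13, and the forkhead gene Foxp1, by 0.47 ± 0.10, though 2 other probes of Foxp1 did not pass, and the rise was Zic4. With 1 array left out, 1 to 4 of these relatives fell and 1 to 2 rose, with the lowest counts of falls without control replicate 1, phenobarbital replicate 2 or phenobarbital replicate 3. Tbx15 and Tbx22 are T-box genes of craniofacial and body-wall mesenchyme, and Foxp1 is also a neuronal gene.

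Choroid plexus and cortical hem genes mark the dorsal midline, where Zic1 is also made. In a list of them 5 of 8 tested rose and none fell, where 6.24% of all names rose and 10.5% fell. The median difference of the list was 1.80. The rises were Folr1, Clic6, Otx2, Ttr and Kcne2, all known from the choroid plexus or its precursors. Kcne2 stayed below the background limit on all 3 control arrays and passed the filter only through the phenobarbital arrays. Its rise is therefore a bound of at least 2.91-fold higher with phenobarbital. The hem genes tested did not pass, with 0.996 ± 0.29 for Rspo2, 1.27 ± 0.57 for Wnt8b, whose other probe passed with 1.61, and -0.33 ± 0.39 for Lmx1a. The summed signal of the list was 4.87 to 11.5 times the 75th percentile in the controls and 18.4 to 29.2 times with phenobarbital. Folr1 and Otx2 rose by 1.84 ± 0.24 and 1.98 ± 0.39 (limma, adjusted p = 0.00838 and 0.0251). The count of rises was 1 to 6 with 1 array left out, and 1 without control replicate 1, phenobarbital replicate 1 or phenobarbital replicate 3. Whether these cells contributed to the higher Zic1 was not tested.

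**Figure D2:**
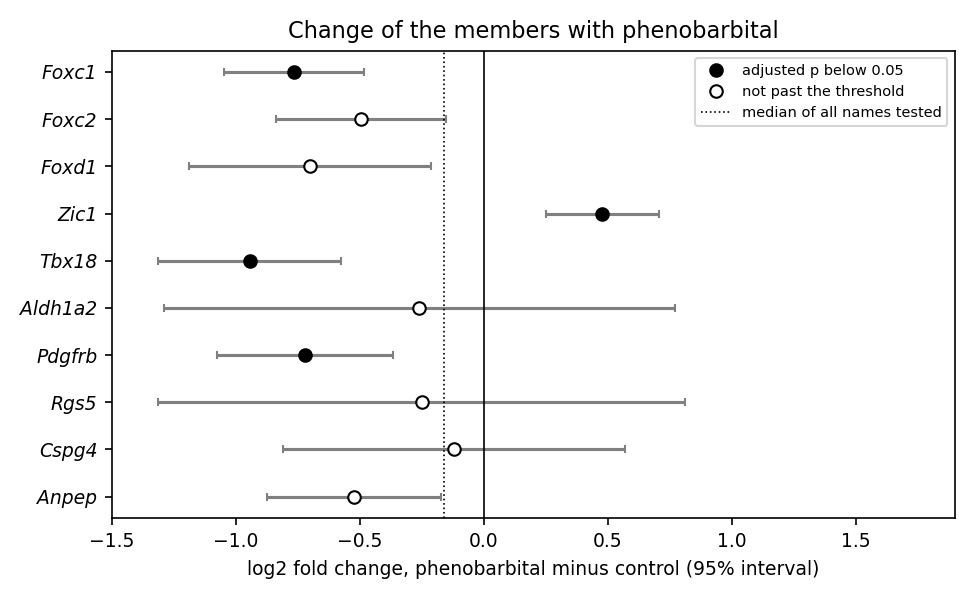
Log2 difference of each gene between phenobarbital and control (brightest probe), with its 95% interval from limma. Filled points passed the threshold on the adjusted p, and the dotted line is the median of all names at -0.16. Tbx18, Foxc1 and Pdgfrb lie below both lines, Zic1 lies above, and the intervals of Aldh1a2, Rgs5 and Cspg4 are the widest.

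Aldh1a2, the retinoic acid enzyme, varied most among the controls. It read 24.5%, 11.3% and 37.1% of the 75th percentile in control replicates 1 to 3 and 23.1%, 15.9% and 16.2% with phenobarbital. The groups overlapped because control replicate 2 was the lowest of all 6 arrays. The difference was -0.26 ± 0.43, with an interval of -1.29 to 0.77 that holds falls and rises alike (adjusted p = 0.697). Without control replicate 2 it was -0.73 (adjusted p = 0.0832), and without control replicate 3 it was 0.13.

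The genes that supply, bind and respond to retinoic acid did not pass in either direction (0 of 13, limma, adjusted over all names), where 16.7% of all names passed. At an unadjusted p below 0.05 there were 4 of the 13 and 9030 of the 25304 names. Their median difference was -0.27, with 10 of 13 negative. The brightest was Crabp2, a carrier that brings retinoic acid to its receptors, with -0.73 ± 0.29 (adjusted p = 0.122). Crabp2 was below every control array on all 3 phenobarbital arrays.

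Among the pericyte genes, Pdgfrb fell and the other 3 did not pass. The receptor read 112%, 148% and 109% of the 75th percentile in the controls and 76.3%, 68.7% and 77.2% with phenobarbital. Control replicate 2 was the highest array, and the gap between the nearest arrays of both groups was 0.50 on the log2 scale. Pdgfrb fell by 0.72 ± 0.15, or 1.65-fold with an interval of 1.29 to 2.11 (limma, adjusted p = 0.0280). The call ended without control replicate 1 (-0.78, adjusted p = 0.0752) and without any 1 of the phenobarbital replicates (-0.75 to -0.67, adjusted p = 0.0706 to 0.0926). It also ended with the 75th percentile of only the probes that all arrays detected (-0.63, adjusted p = 0.0639), with the slide as a block (-0.60, 0.137) and with no filter on dim probes (0.0635).

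Anpep, the surface peptidase CD13, came close to the threshold. Its signal was 58.6%, 50.2% and 58.8% in the controls and 45.9%, 34.3% and 36.9% with phenobarbital. The groups did not overlap, by 0.13 on the log2 scale between control replicate 2 and phenobarbital replicate 1, and the difference was -0.52 ± 0.15 (adjusted p = 0.0551). It passed without control replicate 2 (-0.60, adjusted p = 0.0464).

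Rgs5, the G-protein regulator, read 22.8%, 8.57% and 21.3% in the controls and 17.4%, 8.82% and 16.1% with phenobarbital. Control replicate 2 and phenobarbital replicate 2 were both low and nearly equal, so that the groups overlapped. The difference was -0.25 ± 0.44, with an interval of -1.31 to 0.81 (adjusted p = 0.719).

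Cspg4, the NG2 proteoglycan, read 43.3%, 21.9% and 43.9% in the controls and 36.2%, 28.4% and 31.5% with phenobarbital. Again control replicate 2 was the lowest of the 6 arrays. The difference was -0.12 ± 0.29, with an interval of -0.81 to 0.57 (adjusted p = 0.795). Of the oligodendrocyte precursor genes, which mark another source of Cspg4, 3 of 5 were tested and none passed (limma, adjusted p = 0.0720, 0.168 and 0.957 for Pdgfra, Sox10 and Olig2), and their summed signal was 0.44 to 0.51 times the 75th percentile in the controls and 0.35 to 0.40 times with phenobarbital.

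Ligands and the sister receptor of Pdgfrb gave 1 fall among 4 tested, where 10.5% of all names fell. Pdgfa, a ligand of Pdgfra, fell by 0.54 ± 0.14 (limma, adjusted p = 0.0453), and its other probe had -0.53. No gene of this list fell after quantile normalization, with scaling to the median, with the percentile over probes above background on all arrays, or without any 1 of control replicates 1 and 3 and phenobarbital replicates 2 and 3. Pdgfb, the ligand through which endothelial cells hold pericytes, had a difference of -0.11 ± 0.13 (adjusted p = 0.601), and its other probe gave 0.92 (adjusted p = 0.0596 over all probes), so that its probes disagreed in sign and neither passed. Pdgfra and Pdgfc had differences of -0.61 ± 0.19 and -0.26 ± 0.11.

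On control replicate 2, as among all names, the 10 genes split in direction. Control replicate 2 was the lowest control for 5 of them (Foxc2, Aldh1a2, Rgs5, Cspg4 and Anpep) and the highest for the other 5, where over all names it was the lowest for 41.9% and the highest for 41.7%. Against the mean of control replicates 1 and 3, it was 2.67-fold lower for Aldh1a2, 2.57-fold lower for Rgs5 and 1.99-fold lower for Cspg4, and 1.58-fold higher for Foxd1. The SD among controls was 0.87 for Aldh1a2, 0.79 for Rgs5 and 0.57 for Cspg4 on the log2 scale, as large as or larger than that of 96.7%, 95.8% and 91.1% of all names, whose median was 0.178. For Foxc1 it was 0.11 and for Zic1 0.07. Among the phenobarbital arrays replicate 2 was the lowest for 9 of the 10 genes, all but Foxc2, where over all names it was the lowest for 27.3%.

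Against control replicates 1 and 3 alone, all 3 phenobarbital arrays were lower for 9 of the 10 genes, all but Zic1, which was so for 44.0% of all names. With control replicate 2 left out, 6 genes fell (Foxc1, Foxc2, Foxd1, Tbx18, Pdgfrb and Anpep) and Zic1 rose, where 2585 of all 25304 names fell and 1877 rose. Aldh1a2, Rgs5 and Cspg4 then had differences of -0.73, -0.70 and -0.45 and did not pass (adjusted p = 0.0832, 0.139 and 0.0656). Without phenobarbital replicate 2 none of the 10 genes passed, and over all names 220 fell and 665 rose.

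**Figure D3:**
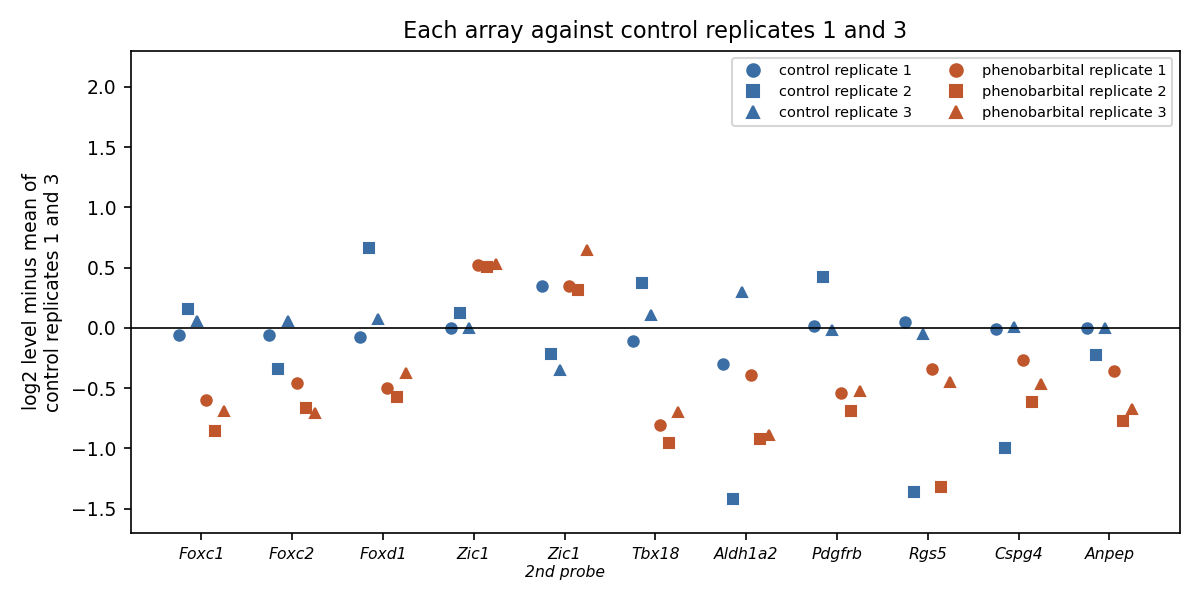
Log2 level of each probe on each array, minus the mean of control replicates 1 and 3. Colours are groups and shapes are replicates. Control replicate 2 (blue squares) lies far below 0 for Aldh1a2, Rgs5 and Cspg4 and above 0 for Foxd1, Tbx18 and Pdgfrb, while the phenobarbital arrays lie below 0 for every gene but Zic1.

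In the wider list of meningeal and mesenchymal genes, 7 of 20 fell, 2 rose and 11 did not pass. Over all names 10.5% fell and 6.24% rose. Lum, a matrix proteoglycan, fell by 0.93 ± 0.14 (limma, adjusted p = 0.0118), the matrix-associated gene Islr by 1.003 ± 0.18, and the collagen genes Col3a1 and Col1a2 by 0.88 ± 0.17 and 0.58 ± 0.12. The rises were Ptgds, the prostaglandin D synthase that choroid plexus also makes, and Bmp7, a growth factor of the meninges and dorsal midline. The count of rises was 1 with scaling to the median or without control replicate 3, and 0 with no filter on dim probes, without control replicate 1 or without any 1 of the phenobarbital replicates. The list's median was -0.54, and its summed signal was 116 to 158 times the 75th percentile in the controls and 75.7 to 81.6 times with phenobarbital. The brightest gene, Crabp2, weighed most in this sum and did not pass. Its log2 levels were 5.56, 6.48 and 5.36 in the controls and 5.01, 5.11 and 5.07 with phenobarbital. The count of falls was 3 after quantile normalization, 4 with scaling to the median, 3 with a percentile of the probes that all arrays detected and 1 with no filter on dim probes. It ranged from 0 to 9 with 1 array left out, from 0 without phenobarbital replicate 2 and 1 without control replicate 1 or 3 to 9 without control replicate 2.

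Mural cells are pericytes and the smooth muscle cells of larger vessels. Of 18 genes in their wider list 17 were tested, and the median was -0.49. Of these, 4 fell, 1 rose and 12 did not pass, where 10.5% of all names fell and 6.24% rose. Heyl, a Notch target, fell by 0.71 ± 0.14 (limma, adjusted p = 0.0265), and Ndufa4l2, a pericyte marker, by 0.49 ± 0.10. Lamc3, a laminin chain, and Myl9, a contractile light chain, fell by 0.59 ± 0.13 and 0.69 ± 0.18. Des, an intermediate filament gene, stayed below the background limit on all 3 control arrays and passed the filter only through the phenobarbital arrays. Its rise is therefore a bound of at least 1.51-fold higher with phenobarbital. The adjusted p of 0.0291 (limma) belongs to the difference of the measured signals, with the dim controls, and not to this bound. No fall in this list remained with 1 array left out, except without control replicate 2, where 5 fell. The falls were 1 with scaling to the median, 2 with a percentile of the probes that all arrays detected and 0 with no filter on dim probes. The rise of Des was lost with normexp, quantile normalization, no filter, and without control replicate 1 or any 1 of the phenobarbital replicates. It was also lost with the slide or the replicate number as a block. Des was not tested where probes had to be above background on all 6 arrays. The summed signal was 71.2 to 73.1 times the 75th percentile in the controls and 51.6 to 64.5 times with phenobarbital.

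Markers of other cells of vessels and meninges were read in the same way, where 10.5% of all names fell and 6.24% rose. Falls were called for 5 of 12 endothelial genes and rises for 0, with a median of -0.56. A further 7 did not pass, and 3 of the 12 had a positive difference, Pecam1 with 0.71 ± 0.22 and no overlap of the groups, Tek with 0.71 ± 0.52 and Tie1 with 0.28 ± 0.16. For the 12 genes together, the summed signal was 87.6 to 93.9 times the 75th percentile in the controls and 52.8 to 62.7 times with phenobarbital. Egfl7, a factor secreted by endothelial cells, fell by 0.75 ± 0.12 (limma, adjusted p = 0.0159), and phenobarbital replicate 2 was the lowest phenobarbital array for 11 of the 12. Of 9 red blood cell genes 5 fell, with a median of -1.41, and all 9 were highest in control replicate 2 among the controls, unlike Aldh1a2, Rgs5 and Cspg4. Their summed signal was 1060 to 1729 times the 75th percentile in the controls and 698 to 787 times with phenobarbital. In the wider meningeal and mesenchymal list, control replicate 2 was the lowest control for 11 of 20 genes and the highest for 9. Among the former, the log2 levels in the controls were 0.08, -2.25 and 0.58 for Cldn11 and -2.67, -4.75 and -2.35 for Slc6a13. They were -2.03, -3.80 and -1.68 for Postn and 2.95, 1.46 and 3.37 for Dcn. Of 9 microglia and macrophage genes 3 fell, 1 rose and 5 did not pass, a median of -0.20 near that of all names, and overlapping sums of 10.1 to 12.1 and 9.76 to 12.4. Cortical progenitor genes gave 1 fall and 1 rise among 10, a median of -0.10, and sums of 521 to 580 and 420 to 497. With 1 array left out, 0 to 5 endothelial, 0 to 7 red blood cell and 0 to 3 microglia and macrophage genes fell, and none of these lists had a fall without control replicate 1 or without phenobarbital replicate 2. After quantile normalization, scaling to the median and a percentile of the probes that all arrays detected, the falls were 2, 3 and 1 for endothelial, 1, 5 and 2 for red blood cell and 1, 0 and 0 for microglia and macrophage genes. The part of these cells in the differences of the 10 genes was not tested.

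**Figure D4:**
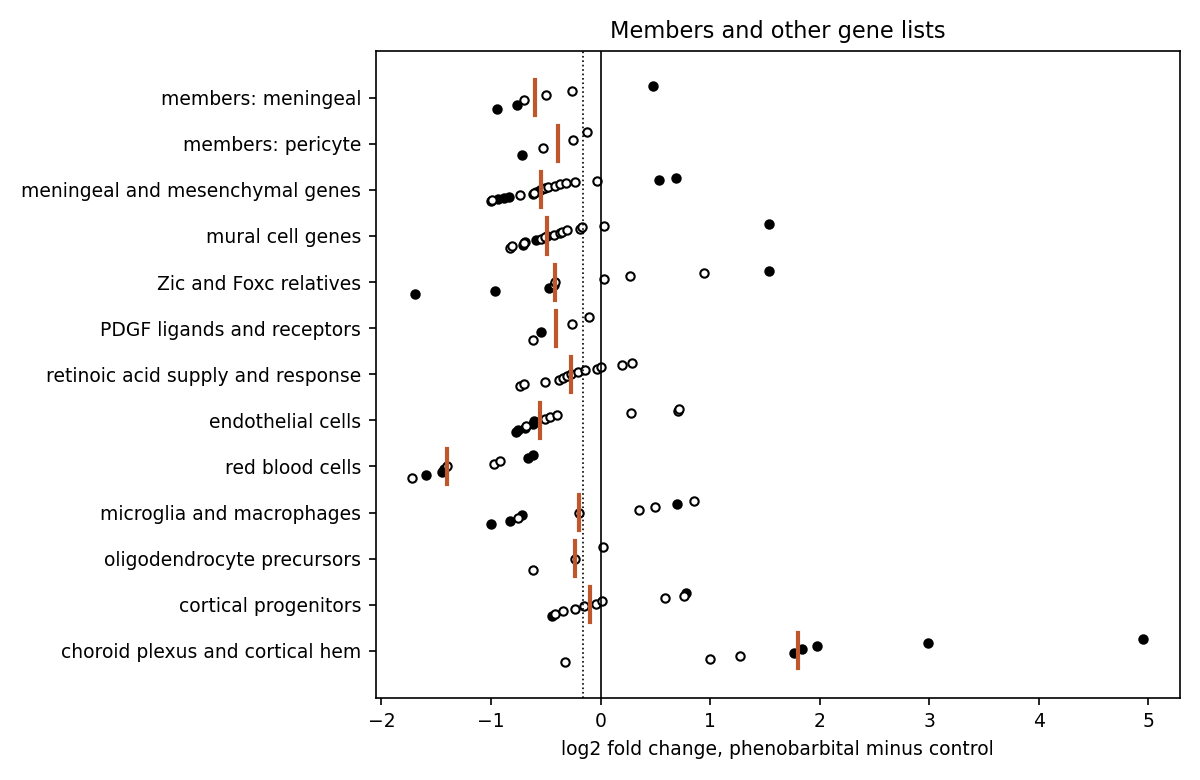
Log2 difference of the tested genes of each list between phenobarbital and control. Filled points passed the threshold on the adjusted p, orange bars are list medians, and the dotted line is the median of all names. The filled point at the right of the mural cell list is Des, which was not above background on the control arrays, and the medians run from -1.41 for red blood cells to 1.80 for choroid plexus and cortical hem.

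How far the scaling carries these values can be read from the unscaled signals. Foxc1 had processed signals of 1063, 1067 and 1073 in the controls and 1046, 881 and 962 with phenobarbital, and Pdgfrb 1443, 1652 and 1311 against 1404, 1273 and 1391. Those of Zic1 were 21275, 20044 and 19816 against 43631, 43469 and 42972. With no scaling between arrays the differences were -0.15 for Foxc1, -0.33 for Tbx18, -0.11 for Pdgfrb and 1.09 for Zic1, while all names shifted by a median of 0.45. Then none of the 10 genes fell, Zic1 rose (limma, adjusted p = 0.000962), and 5 of the 10 had a positive difference that was negative after scaling (Foxc2, Aldh1a2, Rgs5, Cspg4 and Anpep). The falls of Foxc1, Tbx18 and Pdgfrb are thus falls relative to the other genes of the same array, and whether the total RNA signal per cell changed was not tested.

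**Figure D5:**
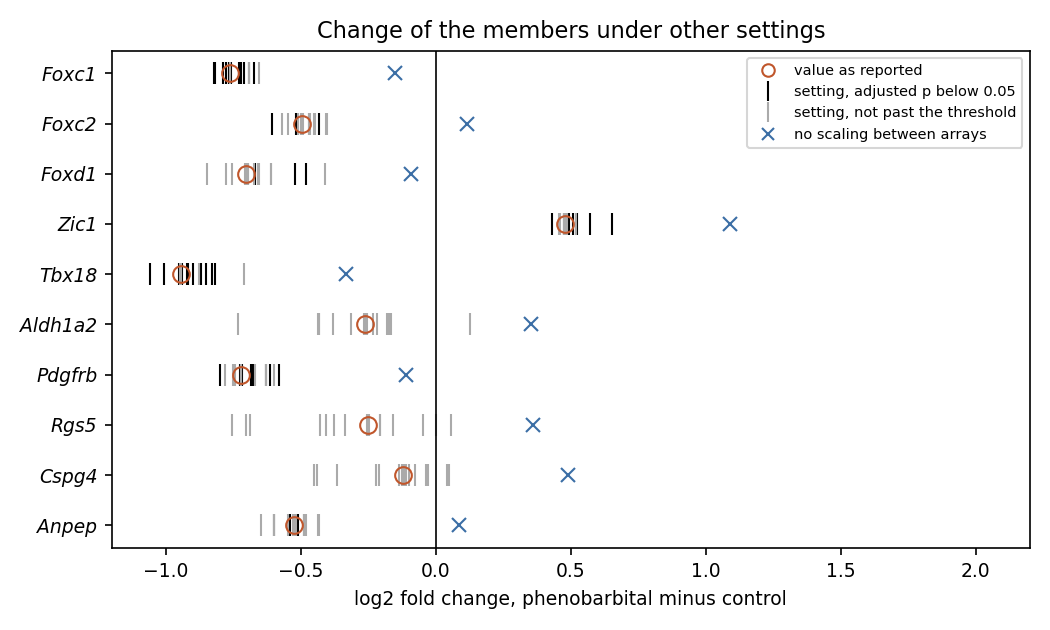
Log2 difference of each gene as reported (open circles), under the other settings (black ticks where it passed the threshold, grey ticks where it did not) and with no scaling between arrays (crosses). Apart from the crosses, 7 genes kept their sign in every setting, and Aldh1a2, Rgs5 and Cspg4 crossed 0 when 1 array was left out.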

How the data were processed

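RNA of each group was measured on 3 single-colour Agilent arrays. Each labelling with Cy3 started from 0.2 µg of RNA, per the labels' protocols. Per the file headers, the authors quantified the arrays with Agilent Feature Extraction 10.7.3.1 (10.7 per the submitters' processing notes), with array annotation on build mm9. The deposited spot values are linear intensity, from which the software had removed background and spatial trend array by array, and they are not scaled to each other. The authors' deposited value table holds log2 values. Its differences between arrays matched those of the log2 processed signals, after removing an offset from each array, to within 1.92e-06 for 99% of probes, which settles scale and direction, while the constant each probe is centred on stays unknown. Its column medians were 0.08, 0.10 and 0.09 in control and -0.02, -0.09 and -0.08 in phenobarbital replicates 1 to 3.

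Outlier spots (98 to 198 of 59305 per array) were set to missing, and no spot was saturated. The log2 processed signal minus the array's 75th percentile was averaged over spots of a probe. Of 55681 probes, 26582 matched a symbol through the RefSeq table (GRCm38.p6). A probe was kept if a whole group of arrays had it well above background and each group had at least 2 values (34673 probes), and the brightest probe of each of 25304 names was tested in R 4.3.3 with limma 3.58.1 (lmFit, eBayes), two-sided, with Benjamini-Hochberg adjustment and no covariates. A gene below background on a whole group has a bound, set per array by its own signal or, if higher, by the dimmest probe counted as well above background. On simulated data (25304 names) the fit recovered 60 of 100 genes changed by 1 and 85 of 100 changed by 2 on the log2 scale, and 9 other genes were called. The simulation drew independent normal noise for each gene, without slide effects or deviations shared by the genes of an array. It changed far fewer names than the 4234 called in the data, so its recovery and false calls need not hold for the data. Precision is limited by the small number of arrays. No arrays were duplicates: at most 1 spot was equal between any 2.

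The members and gene lists were chosen with earlier results of these data known. Named were the 10 members, and from the other lists some of up to 4 called genes ranked by p, or the 2 brightest where none was called, plus genes that a small count needed. Zic2, Zic5, Olig2, Pdgfb, Pdgfc, Rspo2, Wnt8b, Lmx1a, Pecam1, Tek, Tie1, Pax6, Sox2, Nes, Cldn11, Slc6a13, Postn and Dcn were named beyond this rule. Some genes, among them Pdgfra, Crabp2 and Foxf2, stand in more than 1 list, and some genes of the lists are not reported here by name. Replicate numbers recur in both groups, but same-numbered arrays did not deviate together (r = 0.08, -0.16 and -0.35). Other settings changed the background correction, scaling, filter, outlier spots, probe choice, blocks, variance prior, array weights and source of values, and left out each array. No scaling between arrays was added after the data were seen.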

Additional observations from a re-analysis of the deposited data

How the results depend on the processing

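Apart from the setting with no scaling between arrays, Foxc1, Foxc2, Foxd1, Zic1, Tbx18, Pdgfrb and Anpep kept their sign in all 21 other settings. Foxc1 passed in 18 of them, Tbx18 in 17, and Zic1 and Pdgfrb in 13 each. The number of members that fell, 3 as reported, was 6 with normexp on median signals, 6 with array weights, 0 with the slide as a block and 0 with no scaling between arrays. The number of members that rose, 1 as reported, was 0 with the slide as a block and 0 with no filter on dim probes, which tests 37207 names. Over all names 1580 rose as reported, and 608 and 896 in these 2 settings. Counted over probes, the falls and rises of the members moved in the same way, except that 2 Zic1 probes rose with no scaling between arrays. With 1 array left out, 0 to 6 members fell and 0 to 1 rose, over genes and over probes. Over all names 220 to 2585 then fell and 639 to 1877 rose. With the replicate number as a block, 0 members fell and 0 rose, and over all names 25 fell and 270 rose. The labels give no reason to pair these arrays and their deviations did not follow the numbers. The cause of these shifts was not tested.

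Signs turned for members that never passed: Aldh1a2 to 0.13 without control replicate 3, Rgs5 to 0.0022 without control replicate 1 and 0.058 without phenobarbital replicate 2, and Cspg4 to 0.04 and 0.0503 without control replicates 1 and 3. With each array left out in turn, the lowest values were -0.73 for Aldh1a2, -0.70 for Rgs5 and -0.45 for Cspg4, all without control replicate 2. With no scaling between arrays the differences were 0.12 for Foxc2, 0.35 for Aldh1a2, 0.36 for Rgs5, 0.49 for Cspg4 and 0.086 for Anpep.

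Over all names 2654 fell and 1580 rose, so 37.3% of calls were rises, against 53.5% after quantile normalization, 58.4% with scaling to the median, 59.4% with the percentile over probes above background on all arrays, 24.3% with normexp and 98.1% with no scaling. Of the recomputed counts for the other lists, 324 stayed within 1.5 times the reported count and 160 did not. Counts of 0 that stayed 0 are among the 324, as in most settings for the falls and rises of the retinoic acid list. The 324 therefore do not measure how stable the called counts were. All 11 probes of the members were well above background on every array.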
